A study of Mus musculus with 6 samples.

Results

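Tetraspanins are small membrane proteins that cross the membrane several times and gather integrins, proteases and receptors around themselves. They act in adhesion, migration and membrane traffic, and some are used as markers of extracellular vesicles. Protein-coding genes were taken as tetraspanins by their symbol, either Tspan followed by a number or one of Cd9, Cd37, Cd53, Cd63, Cd81, Cd82 and Cd151. The rule found 27 genes among the 53446 gene entries left in the table after those without an estimate were dropped.

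RNA was measured in slowly adherent cardiac mesenchymal cells, stromal cells grown from the mouse heart in culture. The donors were C57BL6/J mice labelled male. In 1 group of 3 libraries (sham) the mice had a thoracotomy without occlusion; in the other group of 3 (infarct) they had 60 min of coronary ischemia followed by reperfusion, and cells were isolated at day 28. The design addresses what a past infarct leaves in the transcripts of such cells. Nothing in the labels ties a library to its own mouse or culture. The p-values given here therefore reflect spread between samples, possibly of technical origin.

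The values are FPKM, fragments per kilobase of transcript scaled to library depth, and the steps between low values implied a depth of 22.4 M to 31.0 M fragments per library (M, 1e6 fragments). Stromal markers were abundant: the 11 fibroblast and mesenchymal markers summed to 4296 to 5594 FPKM. The summed level of the 23 endothelial markers was 258 to 652 FPKM in sham and 124 to 135 FPKM in infarct libraries. Eng alone was at 92.7 to 127.7 FPKM in sham and 70.2 to 102.8 FPKM in infarct libraries, so it made up most of the infarct sums. The 8 proliferation markers summed to 305 FPKM in sham library 2 and 343 FPKM in infarct library 1, and to 114 to 180 FPKM in the other libraries. The sex-linked genes went against the labels: Xist, the RNA of the inactive X chromosome, was at 102.3 to 110.9 FPKM in sham and 63.1 to 89.9 FPKM in infarct libraries. The Y-linked genes Ddx3y, Eif2s3y, Kdm5d and Uty did not exceed 0.225 FPKM in any sham library and lay between 0.451 and 10.6 FPKM in infarct libraries. Groups are used here as the labels give them, and Y-linked levels move with them.

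The tetraspanins differed widely in level and little between the groups. A limma fit covered the 12720 genes that reached 1 FPKM in 3 or more libraries. None of the 19 tetraspanins tested passed an adjusted p of 0.05, where 0.0236% of all genes did and 0.00786% did so with a lower infarct level. Unadjusted p in limma was under 0.05 for 3 of them, Tspan18, Tspan7 and Tspan14, all lower in infarct libraries. The share of all genes was 2.3% in that direction and 1.29% in the other. Tspan18 reached 1 FPKM in no infarct library, so it could be tested only as a gene that is higher in sham. Among the 19 tested, Tspan18 differed most on the log2(FPKM + 1) scale, and its sham mean was 4.91 times the infarct mean. The 4 most abundant tetraspanins, Cd81, Cd63, Cd151 and Tspan4, had infarct means within 3.94% of their sham means. For Cd9, next in level, the means were 126 FPKM in sham and 104 FPKM in infarct libraries.

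Promoter sequences are shown for the most abundant pair, Cd81 and Cd63, and for Tspan14 and Tspan7, whose libraries did not overlap between the groups. Each runs 5′ to 3′ on the strand of the gene, from 250 bases before the start of the gene to 50 after it, from RefSeq on GRCm38.p6. They lie at chr7:143052500-143052799 on the plus strand (Cd81), chr10:128909095-128909394 on the plus strand (Cd63), chr14:40966847-40967146 on the minus strand (Tspan14) and chrX:10484866-10485165 on the plus strand (Tspan7). The RefSeq start used for Cd63 lies inside the gene as GENCODE M21 draws it, from 128900989 to 128912822 on chromosome 10. Capitals mark the GC box GGGCGG, the core of the sequence bound by Sp1-like factors, or its reverse complement CCGCCC.
Cd81: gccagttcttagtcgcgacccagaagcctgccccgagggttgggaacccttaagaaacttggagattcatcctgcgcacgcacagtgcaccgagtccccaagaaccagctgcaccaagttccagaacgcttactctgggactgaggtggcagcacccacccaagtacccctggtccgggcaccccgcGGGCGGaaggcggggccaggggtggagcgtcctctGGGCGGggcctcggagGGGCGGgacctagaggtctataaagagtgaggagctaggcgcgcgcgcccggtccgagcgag
Cd63: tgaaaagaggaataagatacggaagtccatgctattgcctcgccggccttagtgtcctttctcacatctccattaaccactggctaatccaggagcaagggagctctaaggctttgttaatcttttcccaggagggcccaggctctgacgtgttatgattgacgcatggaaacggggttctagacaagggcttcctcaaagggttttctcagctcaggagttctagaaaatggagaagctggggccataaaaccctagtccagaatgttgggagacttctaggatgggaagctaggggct
Tspan14: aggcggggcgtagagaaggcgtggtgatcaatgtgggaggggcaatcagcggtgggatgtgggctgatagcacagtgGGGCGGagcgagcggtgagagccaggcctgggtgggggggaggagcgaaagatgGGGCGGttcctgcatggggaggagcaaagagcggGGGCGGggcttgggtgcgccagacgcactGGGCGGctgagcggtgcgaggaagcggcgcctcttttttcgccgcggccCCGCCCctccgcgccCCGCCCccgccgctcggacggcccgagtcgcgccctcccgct
Tspan7: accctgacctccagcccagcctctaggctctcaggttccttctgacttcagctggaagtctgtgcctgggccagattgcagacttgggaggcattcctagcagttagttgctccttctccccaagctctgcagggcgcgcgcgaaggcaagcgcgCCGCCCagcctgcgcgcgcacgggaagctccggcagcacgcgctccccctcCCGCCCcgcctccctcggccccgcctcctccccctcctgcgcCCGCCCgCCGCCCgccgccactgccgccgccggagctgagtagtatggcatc
The Cd81 promoter held 23 CG dinucleotides and 3 GC boxes, and that of Cd63 held 6 CG dinucleotides and no GC box, although both genes were among the most abundant. Tspan14 held 6 GC boxes and Tspan7 held 4. The table had an entry for 26 of the 27 genes, all but Tspan18. Of these, 14 held a GC box on either strand (53.8%), against 35.9% of all 27025 promoters in the table. The share was 10 of 18 among genes with a mean of 1 FPKM or more and 4 of 8 among the others, with a median of 18.5 and 7 CG dinucleotides.

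Classical CD tetraspanins of many cell types made up most of the tetraspanin RNA. Cd81, a co-receptor subunit of B cells that also sits in vesicle membranes, was measured at 465, 347 and 497 FPKM in the sham libraries, in the order 1 to 3, against 346, 487 and 440 FPKM in the infarct ones. The groups overlapped, with the lowest library of each group at almost the same value. Infarct minus sham, its log2(FPKM + 1) change was -0.04, with a 95% interval of -0.47 to 0.39. Cd81, on chromosome 7 from 143052739 to 143067934 on the plus strand, ranked at 125 among 22002 protein-coding genes by mean level. Cd63, a protein of late endosomes, lysosomes and exosomes, was at 246, 230 and 274 FPKM in sham and at 256, 263 and 261 FPKM in infarct libraries. The infarct libraries lay inside the range of the sham libraries, and the interval of the log2 change ran from -0.16 to 0.28. Cd151, a partner of laminin-binding integrins, was at 169, 137 and 154 FPKM in sham and at 130, 175 and 157 FPKM in infarct libraries, also overlapping (log2 change -0.00167, 95% interval -0.33 to 0.32).

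Cd9, which is needed for sperm and egg fusion and serves as an exosome marker, lies on chromosome 6 from 125460266 to 125494791 on the minus strand. It was at 137, 119 and 123 FPKM in sham and at 121, 85.5 and 105.3 FPKM in infarct libraries. Infarct library 2 was the lowest and infarct library 1 lay within the sham range. The log2 change was -0.29 with an SE of 0.14 (limma, unadjusted p = 0.0802, adjusted p = 1.00). Cd82, known in human tumours as a metastasis suppressor, was at 15.2 to 19.5 FPKM in sham and 15.9 to 18.1 FPKM in infarct libraries. Of these 5 genes, 4 had a negative change and 1 a positive one, and none passed the test.

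Among the genes named Tspan, Tspan4 was the most abundant. Tspan4, which builds migrasomes on the retraction fibres of migrating cells, was at 124, 120 and 128 FPKM in sham and at 115, 124 and 132 FPKM in infarct libraries. It was among the steadiest members, with an interval of the log2 change from -0.22 to 0.20. Its gene starts 3.77 kb downstream of Cd151 on chromosome 7, on the same strand, and it overlaps Chid1 on the opposite strand. Tspan31, first found in a human sarcoma amplification together with its neighbour Cdk4, was at 68.5, 71.6 and 70.0 FPKM in sham and at 66.4, 70.5 and 77.2 FPKM in infarct libraries. The groups overlapped (log2 change 0.02, 95% interval -0.19 to 0.23). Tspan3 was at 73.8, 58.5 and 73.7 FPKM in sham and at 64.2, 83.4 and 75.5 FPKM in infarct libraries. Tspan9, a platelet tetraspanin, was at 55.7, 55.7 and 67.3 FPKM in sham and at 50.02, 59.0 and 56.9 FPKM in infarct libraries. Neither Tspan3 nor Tspan9 separated the groups, with log2 changes of 0.11 (SE 0.14) and -0.10 (SE 0.11).

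**Figure D1:**
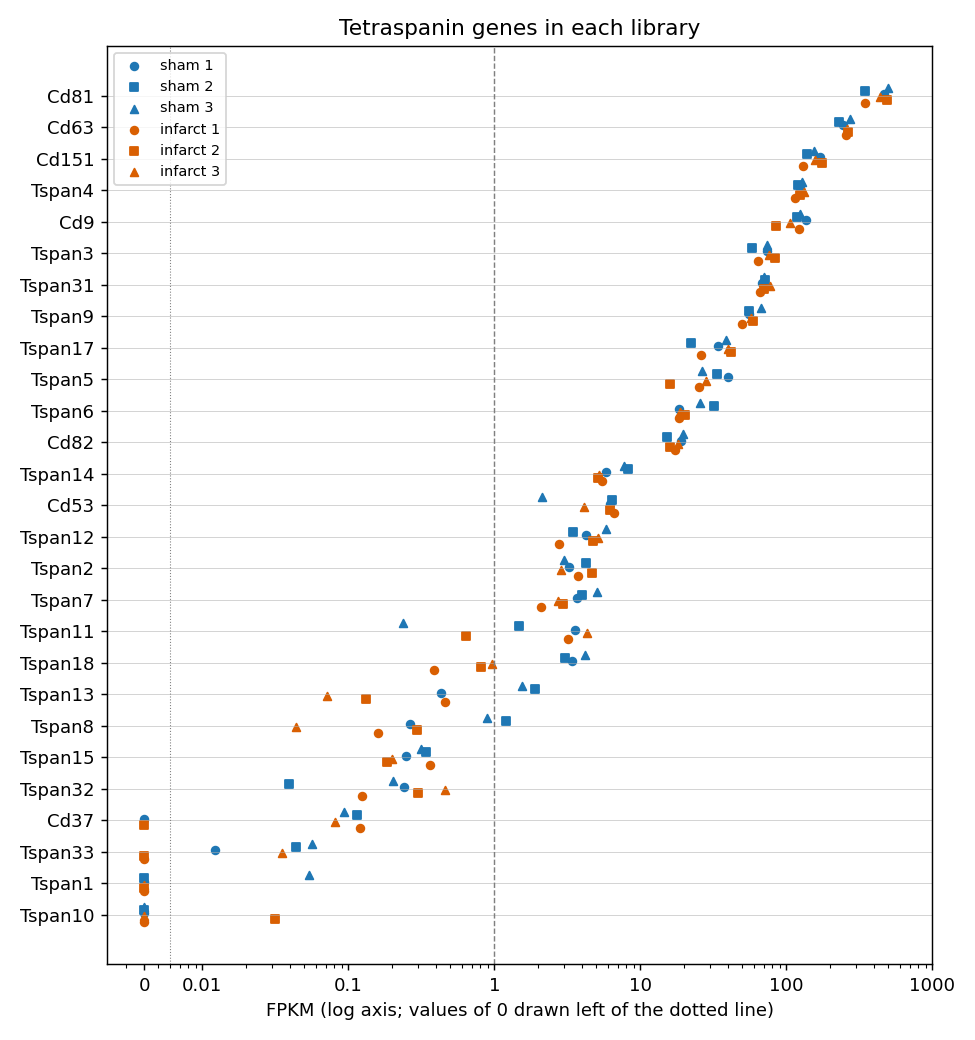
FPKM of the 27 tetraspanin genes in each library on a log axis, ordered by mean level, with sham libraries in blue and infarct libraries in orange. Cd81 lies at 346 to 497 FPKM, and 8 genes have a mean under 1 FPKM, left of the dashed line.

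The 5 members with a mean over 100 FPKM, Cd81, Cd63, Cd151, Tspan4 and Cd9, took 74.7% to 77.3% of the summed tetraspanin level in every library. That sum was 1429 ± 134 FPKM in sham and 1388 ± 111 FPKM in infarct libraries (SD, n = 3 each), or 0.349% ± 0.0281 and 0.336% ± 0.0220 of the FPKM of protein-coding genes. Between neighbours in the order of levels, 5 of 26 steps had no overlap between the libraries. These were Cd81 above Cd63, Cd63 above Cd151, Cd9 above Tspan3, Tspan9 above Tspan17 and Cd82 above Tspan14. The order of Cd151, Tspan4 and Cd9, and that of most lower members, lay within the spread of the libraries. Neighbouring genes could differ by far: Tspan32 lies 33.1 kb from Cd81 on chromosome 7 and was at 0.0391 to 0.463 FPKM.

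The TspanC8 tetraspanins carry the protease ADAM10 to the cell surface and steer which substrates it cuts. Of the 6 genes, 3 were tested, Tspan5, Tspan14 and Tspan17. Tspan5 was at 39.5, 33.4 and 26.5 FPKM in sham and at 25.3, 16.0 and 28.3 FPKM in infarct libraries. The groups overlapped only between sham library 3 and infarct library 3 (log2 change -0.52, SE 0.23, limma unadjusted p = 0.0634, adjusted p = 1.00). Tspan14 was at 5.805, 8.27 and 7.72 FPKM in sham and at 5.42, 5.15 and 5.23 FPKM in infarct libraries. Every infarct library lay below every sham library, with sham library 1 close to them. Its log2 change was -0.39 with an SE of 0.14 (limma unadjusted p = 0.0273, adjusted p = 1.00).

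Tspan17 was at 33.8, 22.1 and 38.3 FPKM in sham and at 26.2, 41.5 and 40.1 FPKM in infarct libraries, and the groups overlapped (log2 change 0.20, SE 0.25). The level of Tspan17 was 0.854, 0.662 and 1.44 times that of Tspan5 in sham and 1.03, 2.59 and 1.42 times in infarct libraries, again overlapping. The summed TspanC8 level was 72.2 ± 7.60 FPKM in sham and 64.7 ± 8.46 FPKM in infarct libraries (SD, n = 3 each). Tspan15 was at 0.185 to 0.362 FPKM, Tspan33 did not exceed 0.0569 FPKM, and Tspan10 was listed at 0 in all libraries but infarct library 2, where 0.0313 FPKM stood for about 1.00 fragment. Adam10 itself, singled out after its values were seen, was at 54.1 to 63.1 FPKM in sham and 56.8 to 58.3 FPKM in infarct libraries.

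**Figure D2:**
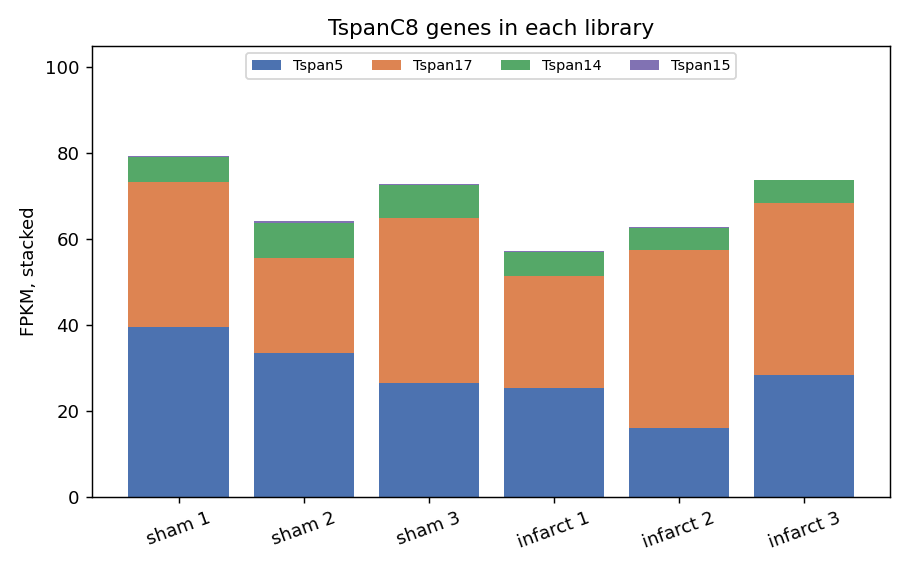
Stacked FPKM of the TspanC8 genes in each library; Tspan10 and Tspan33 are too low to draw. Tspan5 is at 39.5 FPKM in sham library 1 and 16.0 FPKM in infarct library 2, and Tspan17 ranges from 22.1 to 41.5 FPKM in an order that does not follow the groups.

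Tspan18, which regulates the calcium channel Orai1 in endothelial cells, differed most among the tested members on the log2(FPKM + 1) scale. It was at 3.40, 3.05 and 4.15 FPKM in sham and at 0.384, 0.809 and 0.968 FPKM in infarct libraries. The groups did not overlap, and each infarct library was below 1 FPKM. These values stood for about 279 to 450 fragments per sham library and 35.0 to 85.1 per infarct library, if all came from the longest transcript. The log2 change was -1.41 with an SE of 0.18 (limma unadjusted p = 0.000116, adjusted p = 0.245 over all genes). It passed the filter through the sham libraries alone, so it could be tested only as a gene that is higher in sham. In the 14 alternative settings that gave a value the adjusted p lay between 0.172 and 0.837, and a filter of 5 FPKM removed the gene. The log2 change was -2.21 with a pseudocount of 0.1 FPKM and -2.37 with 0.01 FPKM. In the authors' deposited table Tspan18 has q = 0.00178 and is marked significant. Its gene lies on chromosome 2, 93201760 to 93334505 on the minus strand, 84.6 kb from Cd82, which did not differ beyond its spread.

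Endothelial markers were lower there too. Pecam1 was at 10.5, 56.3 and 34.5 FPKM in sham and at 2.52, 0.150 and 0.515 FPKM in infarct libraries. All 23 listed endothelial markers had a lower infarct mean, and for 21 of them every infarct library lay below every sham library. Of these markers 20 were tested, and all 20 had a negative change, where 44.7% of all genes tested did. For 18 of the 20 the infarct libraries lay below the sham libraries, against 4.1% of all genes tested. Only 1, Mmrn2, passed the threshold (limma adjusted p = 0.0329), where 0.00786% of all genes did with a lower infarct level. Mmrn2 and 8 other tested markers reached the filter in no infarct library, so they were tested only through their sham level. Cdh5 was at 17.4 to 70.9 FPKM in sham and 0.191 to 4.37 FPKM in infarct libraries, and Emcn at 29.7 to 136.5 and 0.618 to 7.37 FPKM. Within the groups the markers did not share 1 order. Tspan18 was highest in sham library 3, as were 10 of the 23 markers, and lowest in infarct library 1, as were Flt1 and Eng, while 15 markers, Pecam1 among them, were highest there among infarct libraries. Flt1 was at 3.93, 7.47 and 8.76 FPKM in infarct libraries, the order of Tspan18. In sham libraries it was at 9.50, 18.7 and 20.7 FPKM, which is not the order of Tspan18. There Flt1 and Pecam1 were lowest in library 1 and Tspan18 in library 2. The part of these cells in the difference was not tested, and in bulk samples fewer cells of a type and less RNA per cell cannot be told apart. Orai1 was at 7.78 to 10.03 FPKM in sham and 6.70 to 9.83 FPKM in infarct libraries.

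Tspan7, a surface protein best known from neurons, was at 3.67, 3.96 and 5.02 FPKM in sham and at 2.08, 2.96 and 2.71 FPKM in infarct libraries, with no overlap. Its log2 change was -0.54 with an SE of 0.16 (limma unadjusted p = 0.0106, adjusted p = 0.920). Tspan6 was at 18.3, 32.1 and 25.7 FPKM in sham and at 18.4, 20.3 and 18.6 FPKM in infarct libraries. Sham library 1 was the lowest of all libraries, so the groups overlapped (log2 change -0.36, SE 0.19, limma unadjusted p = 0.104, adjusted p = 1.00). Tspan6 and Tspan7 are the 2 members on the X chromosome. Xist was lower in infarct libraries as well (limma unadjusted p = 0.0164), and the part of sex in these values was not tested. Y-linked levels split the libraries as the groups do, so for every member sex and infarct cannot be told apart here.

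Groups that did not overlap were found for 3 of the 19 tetraspanins tested, Tspan18, Tspan7 and Tspan14, all lower in infarct libraries, against 4.1% of all genes tested in that direction and 7.81% in either. Tspan18 is the 1 tested member that reached the filter in no infarct library. No tested member had all infarct libraries above all sham libraries, against 3.71% of all genes. Of the 19 changes, 12 were negative (63.2%), where 44.7% of all genes had a negative change. The median change was -0.04 for the tetraspanins and 0.02 for all genes. Without infarct library 1 the median of the tetraspanins turned to 0.07.

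**Figure D3:**
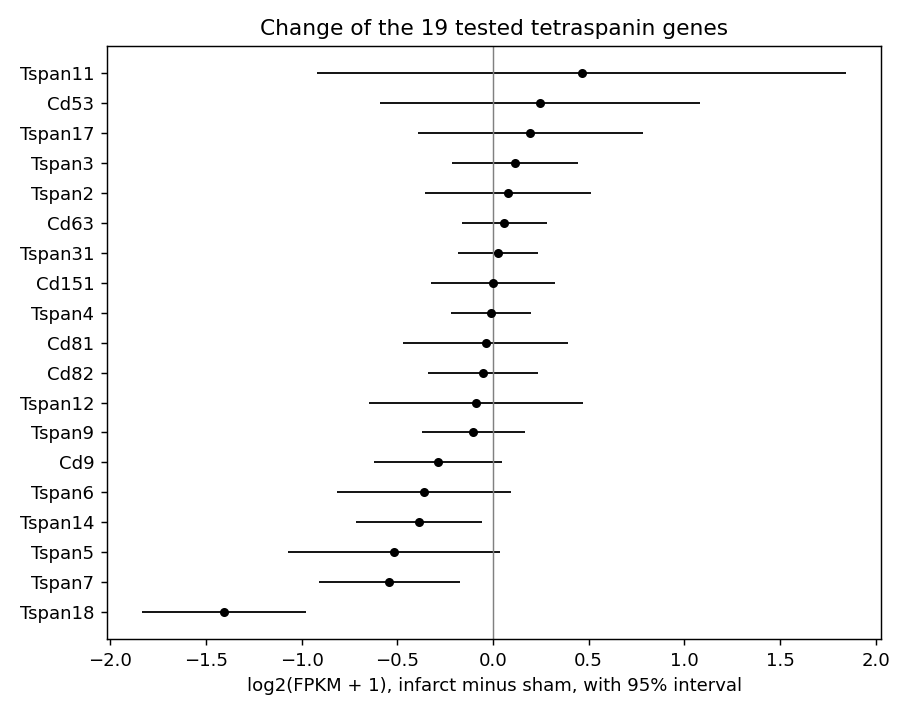
Change of the 19 tested tetraspanins as infarct minus sham in log2(FPKM + 1), with the 95% interval from limma, not adjusted for the number of genes. Tspan18, Tspan7 and Tspan14 have intervals below 0, and the widest interval, that of Tspan11, runs from -0.92 to 1.85.

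Of the members below the filter, Tspan13 and Tspan8 were picked out after their values were seen. Both had lower infarct means, as did Tspan15, Cd37, Tspan33 and Tspan1, while Tspan32 and Tspan10 had higher ones. Tspan13 was at 0.431, 1.89 and 1.54 FPKM in sham and at 0.460, 0.133 and 0.0710 FPKM in infarct libraries. Sham library 1 lay below infarct library 1, so the groups overlapped, and infarct library 3 held about 3.00 fragments. In the authors' deposited table Tspan13 has q = 0.0103 and is marked significant. With no filter limma gave a log2 change of -0.85, an unadjusted p of 0.0249 and an adjusted p of 1.00. Tspan8, which in rat tumour vesicles promotes vessel growth, was at 0.267, 1.19 and 0.897 FPKM in sham and at 0.160, 0.297 and 0.0439 FPKM in infarct libraries, which also overlap. In the authors' deposited table it has q = 0.0623. Sham library 1 was the lowest sham library for both genes and for Pecam1. Krt18, Itga3 and Kit, from other lists, shared this, and Top2a, lowest in sham library 3, did not. It was seen in the values and was not tested. That table tests 21 of the 27 members and marks 2, Tspan18 and Tspan13, against 1.66% of the 14922 genes it tests.

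**Figure D4:**
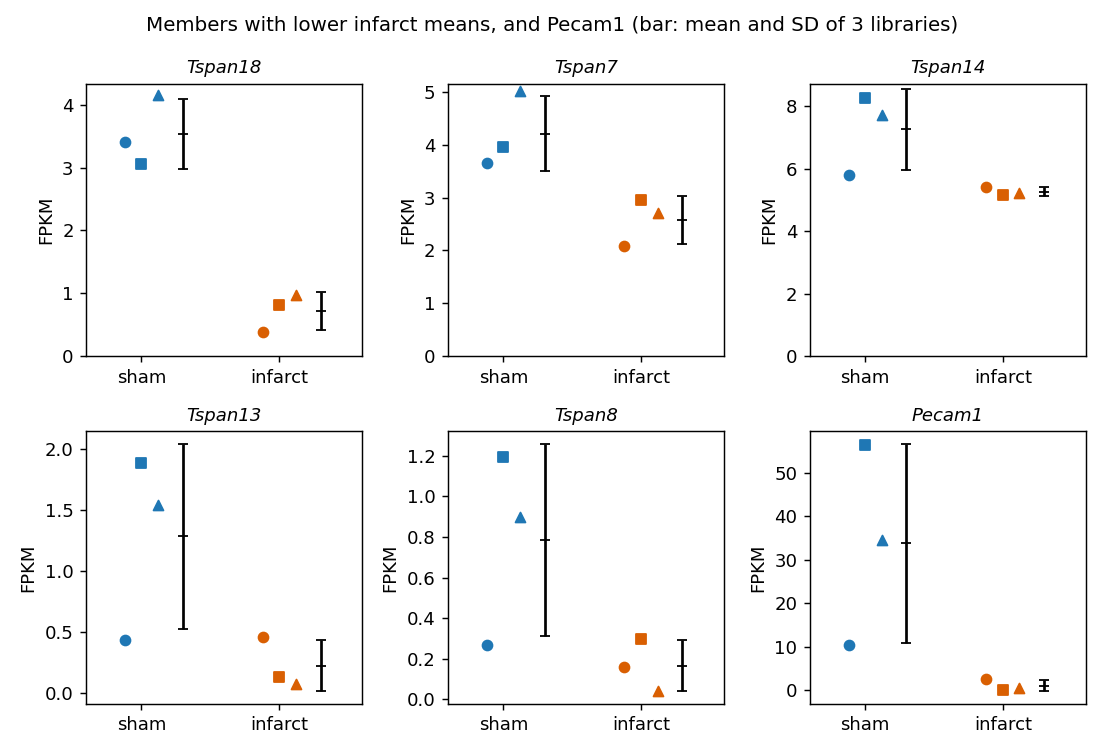
FPKM per library of Tspan18, Tspan7, Tspan14, Tspan13, Tspan8 and the endothelial marker Pecam1, with the mean and SD of 3 libraries beside the points; circle, square and triangle are libraries 1, 2 and 3. Tspan18, Tspan7 and Tspan14 separate the groups, and sham library 1 is the lowest sham library for Tspan13 (0.431 FPKM), Tspan8 (0.267 FPKM) and Pecam1 (10.5 FPKM).

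Leukocyte tetraspanins were low, with 1 exception. Cd53, which marks most leukocytes, was at 6.21, 6.36 and 2.12 FPKM in sham and at 6.55, 6.21 and 4.08 FPKM in infarct libraries. Library 3 was the lowest in both groups, which overlapped (log2 change 0.25, SE 0.35). Cd37, a B cell tetraspanin whose gene overlaps Tead2 on the opposite strand, did not exceed 0.121 FPKM, and Tspan32 stayed at or below 0.463 FPKM. Defining leukocyte genes were at or near 0 in these libraries: Ptprc did not exceed 0.0528 FPKM, Adgre1 and C1qa were listed at 0 in every library, and Csf1r was at 0.371 to 0.691 FPKM. The macrophage and monocyte list of 12 genes summed to 32.5 to 44.6 FPKM in sham and 28.7 to 45.6 FPKM in infarct libraries, most of it from Lyz2 and Lgals3.

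Tspan12 enhances norrin signalling through the receptor Fzd4 in vessels of the retina. It was at 3.48 to 5.78 FPKM in sham and 2.76 to 5.12 FPKM in infarct libraries. Tspan2, a tetraspanin of oligodendrocytes, was at 3.00 to 4.23 and 2.85 to 4.70 FPKM. Tspan11 had the largest SE of the log2 change among the 19 tested members (0.58), at 3.55, 1.47 and 0.237 FPKM in sham and at 3.19, 0.645 and 4.31 FPKM in infarct libraries. Its 66.4 kb gene ends 7.42 kb from Tspan9, which was far steadier. Tspan1, an epithelial tetraspanin, was listed at 0 in all libraries but sham library 3, where it was at 0.0539 FPKM.

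The libraries themselves differed more than the groups for several abundant members. Sham library 2 and infarct library 1 were the 2 lowest libraries for 7 of the 19 tetraspanins tested (36.8%), namely Cd81, Cd151, Tspan3, Tspan4, Tspan9, Tspan12 and Tspan17, against 20.4% of all genes tested. Cd81 was at 347 and 346 FPKM in them and at 440 to 497 FPKM in the other 4. Tspan17 was at 22.1 and 26.2 FPKM in them and at 33.8 to 41.5 FPKM elsewhere. The proliferation markers were highest in these libraries: Top2a was at 55.7 and 82.7 FPKM in them and at 23.0 to 37.4 FPKM elsewhere. This was noticed in the values, and the part of proliferation in it was not tested. Cd9, Tspan5 and Tspan6 did not share this order. Tspan9 shared it only narrowly, with sham libraries 1 and 2 both at 55.7 FPKM.

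**Figure D5:**
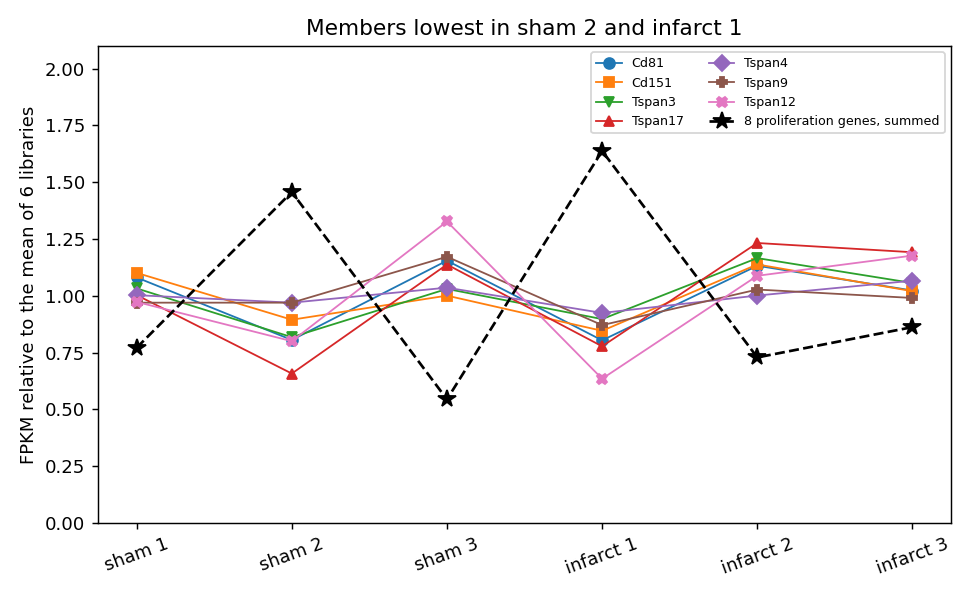
FPKM of Cd81, Cd151, Tspan3, Tspan17, Tspan4, Tspan9 and Tspan12 and of 8 summed proliferation markers, each relative to its mean over the 6 libraries; lines join the points of 1 gene and mark no order of libraries. The 7 genes are lowest in sham library 2 and infarct library 1, where the summed markers are highest, at 305 and 343 FPKM. Tspan9 is at 55.7 FPKM in both sham library 1 and sham library 2.

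Genes of the partners of tetraspanins and of extracellular vesicles gave no call in limma. Of 59 listed genes 46 were tested, and 3 had an unadjusted p under 0.05, where 3.58% of all genes did. These counts include 4 related genes outside the symbol rule, 2 of them tested. Among immunoglobulin superfamily and integrin partners, 10 were tested, 6 with a negative change and a median of -0.04. Icam1, which endothelial cells gather in platforms with Cd9 and Cd151, was at 13.8, 38.8 and 20.02 FPKM in sham and at 8.96, 6.81 and 7.58 FPKM in infarct libraries, without overlap (limma adjusted p = 0.691). Itga6, a laminin receptor subunit bound by Cd151, was at 19.1 to 27.5 FPKM in sham and 15.8 to 20.1 FPKM in infarct libraries, which overlap (limma unadjusted p = 0.0347, adjusted p = 1.00). The hyaluronan receptor gene Cd44 was at 117 and 136 FPKM on average in the groups and Igsf8, a direct partner of Cd9 and Cd81, at 24.3 and 27.2 FPKM. The most abundant of the list, Itgb1 and Vcam1, were at 455 and 155 FPKM in sham and at 448 and 155 FPKM in infarct libraries on average.

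Among proteases and growth factor partners 13 were tested, 9 with a negative change and a median of -0.05, and no unadjusted p was under 0.05. Mean levels in sham and infarct libraries were 14.6 and 20.9 FPKM for Egfr, 4.90 and 3.64 FPKM for Tgfa, 43.4 and 37.3 FPKM for Hbegf, whose precursor binds Cd9, and 12.3 and 9.48 FPKM for Notch1. Timp1, a Cd63 ligand, was at 739 and 718 FPKM and the membrane protease gene Mmp14 at 139 and 140.0 FPKM. Of the norrin receptor genes 3 were tested. Fzd4 was at 12.6 and 9.93 FPKM, Lrp5 at 33.3 and 27.9 FPKM and Lrp6 at 31.8 and 36.3 FPKM, while the ligand Ndp did not exceed 0.0683 FPKM. Among vesicle genes 18 were tested, 12 with a negative change and a median of -0.02. Rab11a, a recycling endosome GTPase gene, was at 117, 139 and 115 FPKM in sham and at 98.1, 110 and 99.2 FPKM in infarct libraries, without overlap (limma unadjusted p = 0.0427, adjusted p = 1.00). Cav1 was at 403 and 309 FPKM, Sdcbp, which encodes syntenin, a Cd63-binding adaptor of vesicle formation, at 116 and 103 FPKM, Sdc4 at 124 and 135 FPKM and Lamp1 at 329 and 331 FPKM on average. Related genes outside the symbol rule were Upk1b, at 6.60 and 9.02 FPKM, Rom1, at 3.78 and 3.49 FPKM, Upk1a, at or below 0.230 FPKM, and Prph2, listed at 0 in every library.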

How the data were processed

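Total RNA of 6 samples was depleted of ribosomal RNA and sequenced from both ends of each fragment in a directional way, per the labels' protocols. Tools listed in the submitters' processing notes, without their roles, are Cuffdiff, Cufflinks, HISAT2, StringTie, SAMtools and Trimmomatic 0.36, and the build is GRCm38. The annotation version and the use of strand in counting are not given in the sources used here. Of the 27 members, 4 overlap a protein-coding gene on the opposite strand (Tspan4, Tspan31, Tspan2 and Cd37), and Cd81, Cd151, Cd9, Cd82, Tspan5, Tspan8, Tspan11, Tspan12 and Tspan32 overlap an antisense non-coding gene or pseudogene, so their reads are uncertain.

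The authors deposited FPKM values for 53460 gene entries, 1 column per library, with group FPKM, p-values and q-values of their own test, per the file headers. The 14 entries with too many fragments to estimate were left out, and entries of 1 symbol were summed. The numbers of the infarct columns do not match those of the infarct samples; these columns carry a group without a sample, and infarct library numbers are column numbers. Depth was read from the steps between low FPKM values of genes with 1 transcript of 2000 to 12000 nt, each shortened by 250 nt. Of these values 97.8% to 98.7% came out as whole fragments to within 0.1, against 20% for values without steps. Fragment numbers are estimates, and they cover counting error only.

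limma 3.58.1 (R 4.3.3) with an intensity trend was run on log2(FPKM + 1) with genes kept if 3 libraries reached 1 FPKM, two-sided, with Benjamini-Hochberg adjustment and a threshold of 0.05. This scale understates changes of low genes. In 20 simulated data sets of this comparison, with 12720 genes, 200 genes were changed per set. Values were drawn independently around each gene's mean with the spread limma gave it, so nothing was shared within a library. The share of changed genes recovered was 12.8% for a log2 change of 0.5, 79.6% for 1 and 97.9% for 2. Of the calls, 5.64% fell on unchanged genes. These averages over genes do not tell how likely a call was for a given tetraspanin. With 200 changed genes the adjusted threshold is easier to pass than with the 3 calls of the data. The shares recovered may therefore be too high for these data. In the data Pecam1, with a log2 change of -3.97, had a limma adjusted p of 0.380. Coordinates and overlaps come from GENCODE M21 (GRCm38), where 99.6% of the gene identifiers were found. Alternatives were other pseudocounts, filters and scalings, no trend and leaving out libraries. Members, lists and tests were chosen with earlier results of these data known. Values in each library were to be given for the 8 most abundant members and the 8 with the smallest p, and those of other members were added after they were seen. From each partner or vesicle list the 4 smallest p and the 2 most abundant were named. Python 3.11.15 was used for the rest.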

Additional observations from a re-analysis of the deposited data

How the results depend on the processing

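No tetraspanin and no partner or vesicle gene was called by limma in any of the 15 alternative settings. Over all genes limma called 3 genes, 1 with no filter, and 1 to 14 when single libraries were left out, the 14 without sham library 1. Without sham library 2 and infarct library 1 together, a setting chosen after seeing the data, limma called 0 genes, with an unadjusted p under 0.05 for 638 genes, 3 of them tetraspanins. Tspan18 had a negative log2 change in the 14 settings that gave it a value, from -1.51 to -1.26 when single libraries were left out. It was -2.21 with a pseudocount of 0.1 FPKM and -2.37 with 0.01 FPKM. The groups do not overlap for Tspan18, Tspan7 and Tspan14. For these genes, leaving out libraries or changing the pseudocount could not turn the sign, so the kept sign is no further evidence. A filter of 5 FPKM removed Tspan18 and Tspan7. Of 193 values of the 13 named members under other settings, 182 kept their sign. The others were near 0. When single libraries were left out, Cd151 ran from -0.10 to 0.11 and Cd81 from -0.19 to 0.10. Tspan4 ran from -0.0588 to 0.0435 and Tspan31 from -0.0335 to 0.07. Without both libraries named above the log2 change was 0.04 for Cd151, 0.02 for Tspan4 and 0.0899 for Tspan31. The median of the tested tetraspanins ran from -0.15 to 0.0682 when single libraries were left out, the 0.0682 without infarct library 1. The median change of all genes lay between 0.0016 and 0.0182 in every setting, scalings included. No paired analysis was possible because the labels pair no sham sample with an infarct sample. Depth limits Tspan1, Tspan10, Tspan33 and Cd37, at or below 7.22 fragments per library. Estimates were also low for Tspan8, at 1.25 to 7.51 fragments per infarct library, and for Tspan13, at 3.00 to 20.2.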
